A study of Danio rerio with 19 samples.

Results

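Collagen genes were taken as the rows of the deposited expression table whose gene name begins with col, a type number, the letter a and a chain number, in upper or lower case. They made up 56 of the 31953 rows. Of these, 54 are collagen genes of 23 types. The other two, col4a3bpa and col4a3bpb, carry the reference symbol CERT1, a ceramide transfer protein, and match by name alone. By class there were 15 fibrillar genes, 10 fibril-associated genes, 8 genes of beaded filaments and related types, 6 basement membrane genes, 5 short-chain genes, 5 transmembrane genes, 3 multiplexins and 2 anchoring fibril genes.

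Collagens are the main structural proteins of the extracellular matrix, secreted as chains that wind around each other into rods. Type I builds the fibrils of skin, tendon and bone, while types II, IX and XI together form the thin fibrils of cartilage and of the notochord sheath. Type IV forms the sheet-like network of basement membranes, and type VI forms beaded filaments around mesenchymal cells. In the pharyngeal arches, neural crest cells fill the space inside the arch and later give rise to the facial cartilages, bones and connective tissue.

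RNA was sequenced from 19 libraries of zebrafish cells sorted on fluorescent reporters. From wild-type embryos at 36 hpf (hours post fertilization) came 2 libraries of hand2 and sox10 reporter cells (hand2-sorted), 1 library of dlx5a and sox10 reporter cells (dlx5a-sorted), and 3 libraries of arch cells positive for both fli1a:GFP and sox10:DsRed (all-arch). Sorted alongside them were 3 libraries positive for fli1a:GFP alone (fli1a-only, labelled mixed and vasculature), and 3 libraries positive for sox10:DsRed alone (sox10-only, labelled mixed and ear). The sample labels put the sox10-only libraries at 20, 28 and 36 hpf, whereas the series text has these cells isolated at the same time as the wild-type arch cells of 36 hpf. The stage labels are used here, and this disagreement touches every result on the sox10-only libraries. Arch cells positive for both reporters at 36 hpf also came from genotyped edn1-/- embryos (2 libraries), and from genotyped jag1b-/- and jag1b+/+ embryos (1 library each). Heat-shocked embryos gave 1 library each of hspGal4 ; UASEdn1, of hspGal4 ; UASNICD and of hspGal4 alone. Edn1 is the secreted signal that sets ventral arch identity, Jag1b is a Notch ligand of the dorsal arch, and NICD is the active intracellular part of a Notch receptor. A heat-shock promoter is active in cells throughout the embryo, not in the arches alone. The alleles, the transgenes behind the hand2 and dlx5a reporters, and the number of embryos or clutches behind each library are not given in the sources used here. The p-values therefore measure only the spread between these libraries, which may be technical.

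The values are TPM (transcripts per 1000000), which are relative to gene length and to each library's total. TPM keep no depth, so the depth behind each value is unknown. Several genes that mark the sorts and genotypes followed the labels where they could be read, but not all separated the sorts. sox10 was at 12.6 to 46.2 TPM in all-arch and 710 to 909 TPM in sox10-only cells, though both carry its reporter. fli1a was at 41.6 to 44.5 TPM in all-arch and 2.03 to 2.33 TPM in sox10-only cells. dlx5a was at 1530 TPM in the dlx5a-sorted library, and at 1595 and 1065 TPM in hand2-sorted libraries. hand2 stood at 34428 and 25346 TPM in hand2-sorted cells, against 639 to 856 TPM in all-arch cells. In the mutant library jag1b had 5.85 TPM, against 31.6 TPM in its wild type. edn1 was at 20.9 TPM in the heat-shock Edn1 library, against 1.37 TPM in heat-shock Gal4. notch1a, which encodes a Notch receptor, was at 40.9 TPM in heat-shock NICD, against 4.30 TPM in heat-shock Gal4. edn1 was at or under 0.549 TPM in both edn1 mutant and all-arch libraries, too low to check the mutants. Globin genes held 22.7% to 61.5% of all TPM of fli1a-only cells, and no more than 1.37% elsewhere. Notochord markers were highest in the sox10-only libraries of 36 and 20 hpf and next in replicate 2 of the edn1 mutant, and results that rest on them are given with those values.

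Collagen expression in the arches was dominated by a few fibrillar genes. Of the 56 members, 40 reached 1 TPM in at least 1 library, 26 reached 10 TPM, and 12 were at or above 1 TPM in all 19 libraries. The 16 that never reached 1 TPM include col5a2b and col5a3a (minor fibrillar chains), both col19a1 rows, and col4a3 and col4a4 (chains of the kidney glomerular basement membrane in mammals). All collagen genes together held 129 and 451 TPM in hand2-sorted cells and 525 TPM in dlx5a-sorted cells, against 997 to 3408 TPM in all-arch cells. Arches of edn1 mutants held 1100.1 and 2428 TPM. Fli1a-only cells held 1045 to 3296 TPM, and sox10-only cells held 391, 544 and 10419.9 TPM at 20, 28 and 36 hpf. In bulk libraries such as these, fewer cells of a type and less RNA per cell cannot be told apart.

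col1a1a or col1a2, which encode the chains of type I collagen, was the leading collagen gene in 16 of the 19 libraries, and col2a1a, the type II cartilage collagen, led in all 3 sox10-only libraries. The 3 leading collagen genes held 58.4% to 84.8% of all collagen TPM in a library. The levels differed greatly between libraries of one group. col1a1a was at 259, 937 and 1456 TPM in all-arch replicates 1, 2 and 3 and at 272, 446 and 1334 TPM in fli1a-only replicates 1, 2 and 3. Replicate 1 was the lowest and replicate 3 the highest in both populations.

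**Figure D1:**
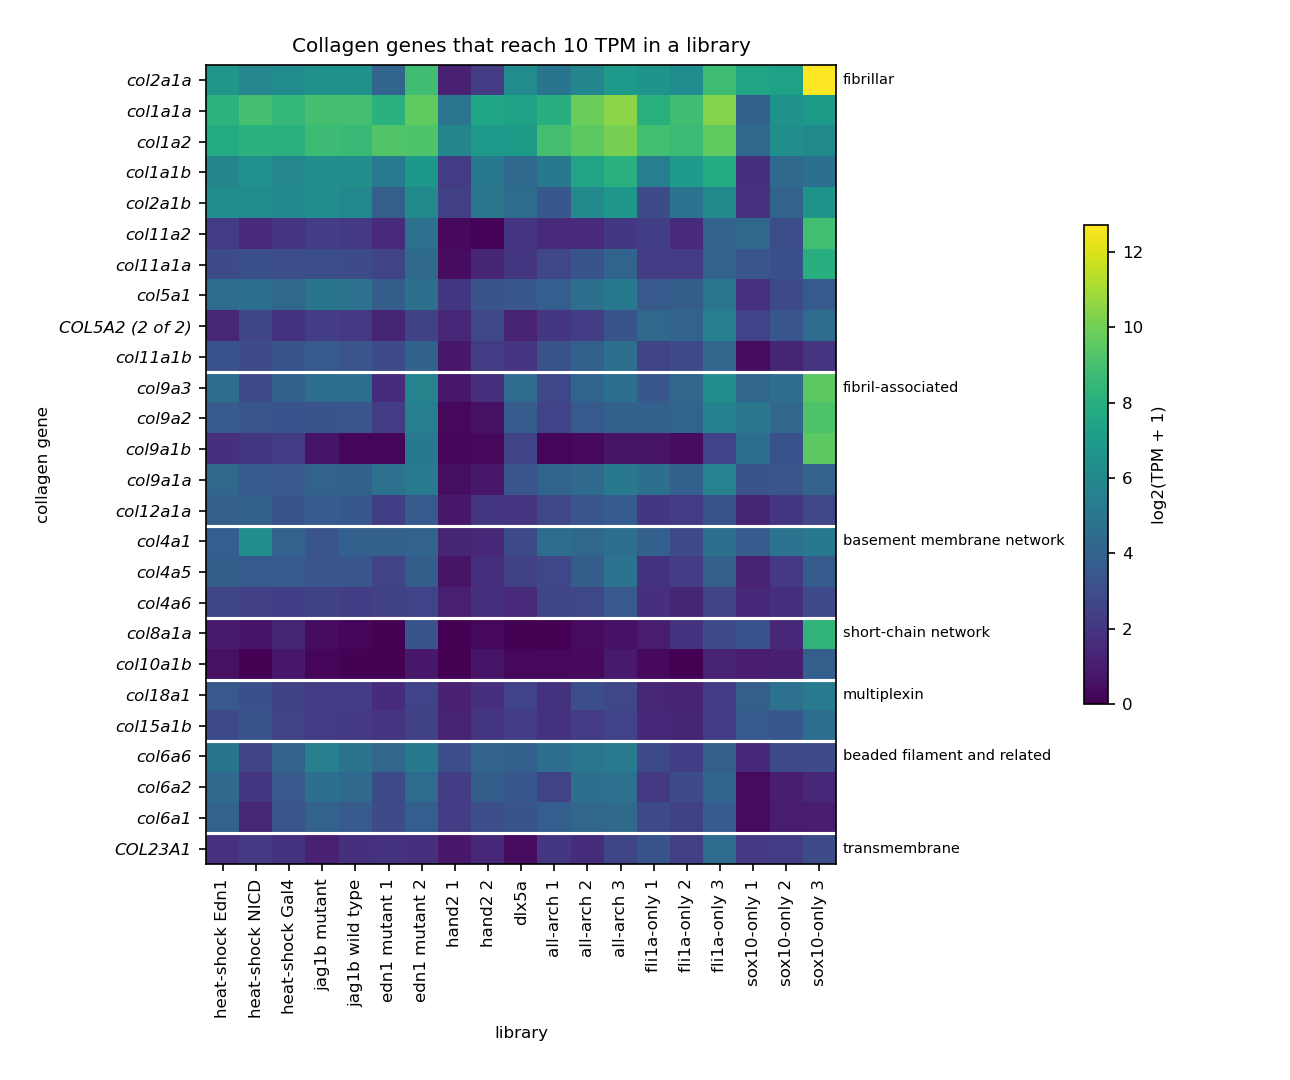
Level of the 26 collagen genes that reached 10 TPM in a library, as log2(TPM + 1), with genes in rows grouped by class and the 19 libraries in columns. A type I gene is the leading collagen gene in 16 of the 19 columns, and the col2a1a, col9a1b, col9a2, col9a3, col11a1a, col11a2 and col8a1a rows are brightest in the sox10-only library of 36 hpf.

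Hand2-sorted cells carry the reporters of hand2, a transcription factor of the ventral arch, and of sox10. The comparison sets them against all-arch cells, sorted on fli1a and sox10, so the reporters differ as well as the region. Summed heart and neuron markers were higher in the hand2-sorted libraries (values below), so the sort is not read here as ventral arch cells alone. A basement membrane, a cartilage and a type I collagen gene fell in the hand2-sorted libraries, and most other members had lower means there. Of 32 members tested, 3 fell and 0 rose at an adjusted p under 0.05 (limma with Benjamini-Hochberg adjustment over all 13206 genes tested). The 3 were col4a1, col9a1a and col1a2. Among all genes tested, 1.26% fell and 0.295% rose. Of the tested members, 31 had a lower mean on the log2 scale, and the median log2 difference was -1.61, against -0.12 over all genes tested. In 23 of the 32, both hand2-sorted libraries were below all 3 all-arch libraries, against 15.7% of all genes tested, and 0 lay above them, against 11.7%. With the replicate number as a block, 11 members fell and 0 rose, against 2.18% and 0.707% of all genes. The libraries of this fit share only 2 replicate numbers, which are not taken as pairs, so the count of 11 is given as an alternative only. The 32 are those with a mean of at least 1 TPM over the libraries fitted together, not all members.

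col1a2 (ENSDARG00000020007), the alpha 2 chain of type I collagen, was at 55.8 and 116 TPM in hand2-sorted libraries, against 499, 725 and 1100.2 TPM in all-arch libraries. The groups did not overlap. The means were 86.1 ± 42.8 TPM (SD, n = 2) in hand2-sorted cells and 775 ± 304 TPM (SD, n = 3) in all-arch cells, a log2 difference of -3.17 (SE 0.44, limma adjusted p = 0.0237), or -3.06 relative to the median gene. This call held without hand2-sorted replicate 2, but was lost without any 1 of the other four libraries (adjusted p 0.0540 to 0.177), and when low genes were kept (adjusted p = 0.0729). col1a1a (ENSDARG00000012405), the main chain, was at 30.6 and 178 TPM in hand2-sorted libraries, below the 259, 937 and 1456 TPM of the all-arch libraries. Its log2 difference of -3.24 missed the threshold (SE 0.98, limma adjusted p = 0.24). col1a1b, the duplicate of col1a1a, was at 3.71 and 35.0 TPM in hand2-sorted and 34.6, 169.6 and 266 TPM in all-arch libraries, with an overlap between hand2-sorted replicate 2 and all-arch replicate 1.

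Among the other fibrillar genes, none passed the test. col5a1, a type V chain that sits inside type I fibrils, was at 3.21 and 8.85 TPM in hand2-sorted libraries and 12.9, 25 and 34.8 TPM in all-arch libraries (log2 difference -1.87, limma adjusted p = 0.224). The type XI gene col11a1b was at 0.826 and 3.68 TPM, against 8.62, 13.9 and 24.1 TPM in all-arch libraries. For both genes all hand2-sorted values lay below all all-arch values. col2a1a was at 1.25 and 3.74 TPM in hand2-sorted cells, against 29.3, 57.0 and 114 TPM in all-arch cells, without overlap. Its log2 difference of -4.17 (95% interval -7.23 to -1.11) was the largest of any member, but missed the threshold (limma adjusted p = 0.249). Its duplicate col2a1b was at 4.36 and 32.2 TPM in hand2-sorted libraries and 9.91, 68.1 and 105 TPM in all-arch libraries, and there the groups overlapped.

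col9a1a (ENSDARG00000073699), a chain of the type IX collagen that coats cartilage fibrils, stayed below 1 TPM in both hand2-sorted libraries. It was at 0.404 and 0.803 TPM there, against 16.4, 19.4 and 34.6 TPM in all-arch libraries, and the groups did not overlap. The log2 difference was -3.87 (SE 0.37, limma adjusted p = 0.00707), or -3.75 relative to the median gene. The call was lost without hand2-sorted replicate 1 (adjusted p = 0.0668). The partner chains col9a2 and col9a3 were at 0.223 and 0.465 TPM and 0.778 and 2.45 TPM in hand2-sorted libraries, against 4.97, 11 and 14 TPM and 5.72, 16.4 and 24.3 TPM in all-arch libraries. They did not overlap either, and missed the threshold (limma adjusted p = 0.242 and 0.514).

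col4a1 (ENSDARG00000055009), a chain of the basement membrane network, had the smallest standard error of the 3 genes that fell. It was at 1.48 and 1.63 TPM in hand2-sorted libraries, against 21.9, 18.4 and 24.9 TPM in all-arch libraries. The means were 1.55 ± 0.106 TPM in hand2-sorted cells (SD, n = 2) and 21.7 ± 3.22 TPM in all-arch cells (SD, n = 3), a log2 difference of -3.15 (SE 0.24, limma adjusted p = 0.00467), or -3.03 relative to the median gene. It stayed under 0.05 without any 1 library (adjusted p 0.0196 to 0.0411). The other type IV genes tested, col4a5 and col4a6, were at 0.581 and 2.36 TPM and 1.17 and 2.45 TPM in hand2-sorted cells, against 5.48, 12.6 and 27.8 TPM and 5.33, 5.78 and 10.6 TPM in all-arch cells (limma adjusted p = 0.184 and 0.127). The partner chain col4a2, at up to 1.51 TPM in all-arch libraries, was below the mean of 1 TPM needed for the test.

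The type VI chains showed smaller differences. col6a6, which the reference table lists as col6a4a, was at 7.23 and 15.6 TPM in hand2-sorted and 23.2, 31.2 and 35.3 TPM in all-arch libraries (log2 difference -1.38, limma adjusted p = 0.238). col6a1 was at 3.97 and 7.36 TPM in hand2-sorted and 12.8, 17.5 and 20.3 TPM in all-arch libraries. col6a2, whose groups overlapped, was at 3.91 and 12.7 TPM in hand2-sorted and 5.03, 24.8 and 27.2 TPM in all-arch libraries. Neither passed the test (log2 differences -1.44 and -1.0). The non-collagens col4a3bpa and col4a3bpb differed least, with log2 differences of 0.08 and -0.14.

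Several genes for proteins that bind or cross-link collagen fell too. Of 19 tested genes for matrix proteins that bind collagen, 9 fell and 0 rose (limma, adjusted p under 0.05), with a median log2 difference of -1.62. fmoda, which encodes the fibril-binding proteoglycan fibromodulin, was at 20.5 and 28.4 TPM in hand2-sorted libraries, against 417, 304 and 565 TPM in all-arch libraries (log2 difference -4.05, limma adjusted p = 0.00520). lum and kera, which encode the related proteoglycans lumican and keratocan, had log2 differences of -3.78 and -3.18 (limma adjusted p = 0.0164 and 0.0164). Of 6 genes for collagen maturation and cross-linking, 3 fell: loxl2b and loxl1, which encode lysyl oxidase-like cross-linking enzymes, and pcolce2a, an enhancer of procollagen cleavage. Of 7 collagen receptor genes, 1 fell, the integrin gene itga11a (log2 difference -2.61, limma adjusted p = 0.0204). Of 9 genes of non-collagen cartilage and bone matrix, matn4 and sparc fell, and sparc also counts among the 9 collagen-binding genes. None of 28 genes for collagen chaperones and modifying enzymes, 14 cartilage and bone regulators or 10 matrix metalloproteinases and their inhibitors passed in either direction, with median log2 differences of -0.81, -0.08 and -0.96.

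Cell type markers also moved with this sort. Of 8 heart genes tested, 4 rose in hand2-sorted cells (limma, adjusted p under 0.05), and the summed heart list was at 114 and 435 TPM, against 14.6 to 32.2 TPM in all-arch cells. Summed neuron markers were at 915 and 1175 TPM, against 276 to 547 TPM in all-arch cells, with 1 of 11 past the test. Epidermis markers had a median log2 difference of 2.1, with 1 of 15 past the test on the higher side (4 of 15 with the replicate block), and summed to 2974 and 3663 TPM in hand2-sorted cells, against 2009 to 3499 TPM in all-arch cells. Of 18 skeletal muscle genes 0 passed. Their part in the lower collagen levels was not tested.

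**Figure D2:**
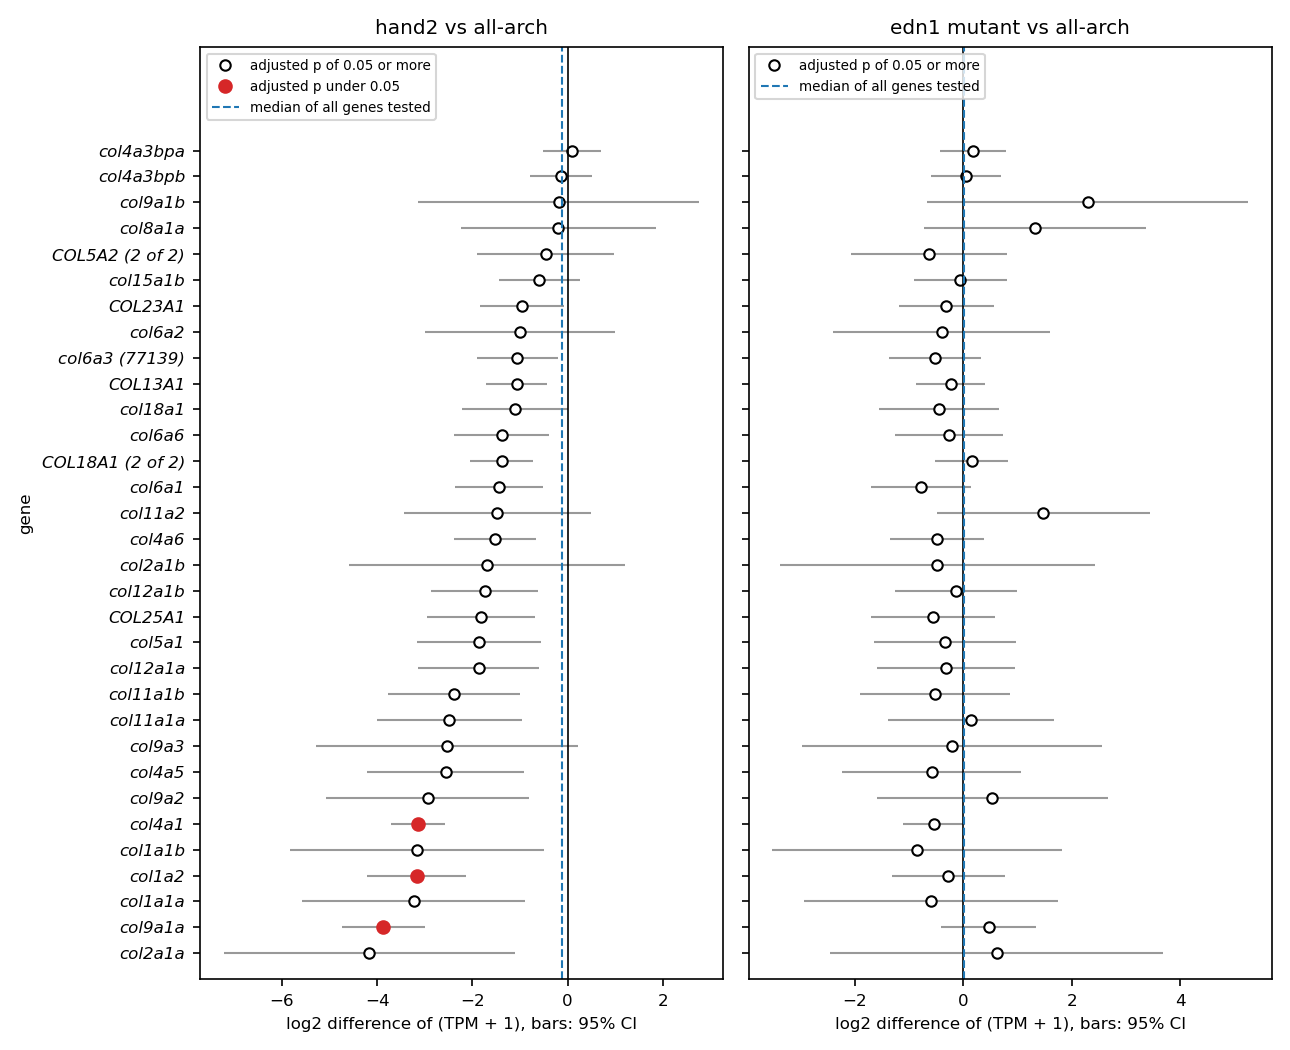
Log2 differences of (TPM + 1) for the 32 members tested in hand2-sorted cells (left) and edn1 mutant arches (right), each against all-arch cells, with bars for 95% confidence intervals and a dashed line at the median of all genes tested. The 3 filled points, col4a1, col1a2 and col9a1a, have an adjusted p under 0.05 in the left panel, where 31 points lie below 0, and no point is filled in the right panel.

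Dlx5a-sorted cells carry the reporter of dlx5a, a transcription factor of the ventral and intermediate arch. No member passed the test against all-arch cells (limma, 0 higher and 0 lower of 32; 0.0757% and 0.318% of all genes tested rose and fell). There was 1 dlx5a-sorted library, and the fit assumes that it varies like the other groups. The largest differences at 10 TPM or more were in the type I genes. col1a2 was at 121 TPM in the dlx5a-sorted library (log2 difference -2.59, -2.22 relative to the median gene, limma adjusted p = 0.124). col1a1b was at 19.8 TPM and col1a1a at 160.5 TPM (log2 differences -2.50 and -2.13). All 3 values lay below every all-arch library. The median log2 difference was -1.09 over the members tested and -0.38 over all genes tested, and 22 of the 32 members were below every all-arch library, against 51.1% of all genes tested, while 1 was above all of them, against 15.9%.

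Several cartilage genes lay within the all-arch range in this library. col2a1a was at 70.4 TPM, col9a2 at 12.1 TPM and col9a3 at 21.2 TPM, each inside the all-arch range. col4a1 was at 6.40 TPM, below all 3 all-arch libraries (log2 difference -1.61, limma adjusted p = 0.0945), and col9a1a was at 9.45 TPM, also below them. The beaded filament genes col6a6, col6a1 and col6a2 were at 14.2, 8.86 and 9.88 TPM. col5a1 was at 9.93 TPM, col11a1b at 2.91 TPM, col11a1a at 3.07 TPM and col2a1b at 21.4 TPM. Among collagen-binding genes, 1 of 19 fell, the laminin gene lamb1b (log2 difference -2.45, limma adjusted p = 0.0441). Otic markers summed to 880.0 TPM in this library, against 181 to 289 TPM in all-arch libraries, with 1 of 8 past the test. Most of the all-arch sum was sparc, also on the collagen-binding list, at 161, 228 and 262 TPM in replicates 1, 2 and 3. In the dlx5a-sorted library cldna led, at 501 TPM. Epidermis markers had a median log2 difference of 1.97 with 1 of 15 past the test, and summed to 3957 TPM, against 2009 to 3499 TPM in all-arch libraries. The part of either in these values was not tested. The difference between the hand2-sorted and dlx5a-sorted effects was not tested.

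Loss of edn1 removes the ventralizing signal of the arch, and the comparison asks whether collagen levels change in mutant arches. No member passed the test (limma, 0 higher and 0 lower of 32; 0% of all genes tested rose and 0.00757% fell), and none was past an unadjusted p of 0.05. With the replicate number as a block the count was also 0 in each direction (0.00752% of all genes fell). Both mutant libraries lay above all all-arch libraries in 0 members and below them in 2, against 9.70% and 5.18% of all genes. The type I genes lay at levels seen in all-arch cells. col1a1a was at 275 and 791 TPM in edn1 mutant libraries, inside the all-arch range of 259, 937 and 1456 TPM (log2 difference -0.60, 95% interval -2.94 to 1.74). col1a2 was at 619.6 and 596 TPM, also inside the all-arch range (log2 difference -0.28, 95% interval -1.31 to 0.76). col1a1b was at 37.8 and 109 TPM. For these genes the intervals leave room for changes of more than 1 log2 unit in col1a1a and in col1a2, so an effect of that size could not be detected here. Of the other genes called in hand2-sorted cells, col4a1 was at 13.9 and 15.4 TPM in edn1 mutants, both below every all-arch library. It is 1 of the 2 members placed so, a count near the share of all genes given above. The control arch libraries of the other series held col4a1 at like levels, 13.9 TPM in jag1b wild type and 15.2 TPM in heat-shock Gal4. col9a1a was at 26.7 and 36.6 TPM in edn1 mutants, overlapping with the all-arch libraries. The hand2-sorted and edn1 mutant comparisons share the all-arch libraries.

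The largest differences at 10 TPM or more rested on 1 library. col9a1b was at 0.163 and 34.8 TPM in edn1 mutant replicates 1 and 2, against 0.162, 0.217 and 0.609 TPM in all-arch libraries (log2 difference 2.29, 95% interval -0.66 to 5.25, limma adjusted p = 1.0). col11a2 was at 1.99 and 26.1 TPM in edn1 mutants, against 1.87, 1.85 and 3.14 TPM in all-arch cells (log2 difference 1.48). Replicate 2 was high for both, and replicate 1 lay near the all-arch level. col2a1a at 16.8 and 455 TPM, col8a1a at 0 and 8.90 TPM, col9a2 at 3.85 and 44.6 TPM, col9a3 at 2.03 and 50.4 TPM and col11a1a at 5.05 and 20.2 TPM in replicates 1 and 2 split the same way. Without replicate 1 the adjusted p of col9a1b was 0.0442, and without replicate 2 the log2 difference of col11a2 was -0.11. Replicate 2 also held notochord markers. The summed list was at 14.5 and 81.5 TPM in mutant replicates 1 and 2, against 19.2 to 26.2 TPM in all-arch libraries, with ta, the Brachyury homolog of the notochord, at 1.81 and 18.7 TPM and cmn, a notochord sheath gene, at 0.00717 and 10.7 TPM. In all-arch libraries ta was at 0.781, 0.211 and 1.49 TPM. Skeletal muscle markers summed to 459 and 240.0 TPM in edn1 mutants, against 1729 to 4585 TPM in all-arch cells. The part of these cells in the collagen values was not tested. The other fibrillar and beaded filament genes in edn1 mutants were at 12.5 and 24.6 TPM (col5a1), 6.45 and 14.4 TPM (col11a1b), 13.4 and 65.2 TPM (col2a1b), 17.5 and 34.0 TPM (col6a6), 6.58 and 12.8 TPM (col6a1) and 6.20 and 20.6 TPM (col6a2). No gene on the 7 lists of collagen-related roles passed the test.

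All-arch cells carry both reporters, whereas sox10-only cells lack the fli1a reporter, and the comparison sets arch crest against other sox10-positive cells such as glia, pigment cells and the ear. The type I genes col1a1a and col1a2 and 3 of the 5 type VI genes tested rose in the arch cells, and 2 multiplexin genes fell. Of 34 members tested, 8 rose and 2 fell at an adjusted p under 0.05 (limma with Benjamini-Hochberg adjustment over 14270 genes), against 3.40% and 10% of all genes tested. The 8 were col1a2, col1a1a, col6a1, col6a2, col11a1b, col6a6, col12a1b and col5a1, and the 2 were col18a1 and col15a1b. With the replicate number as a block, 17 rose and 5 fell (5.99% and 14.6% of all genes). The block added, on the higher side, col1a1b, col4a5, col4a6, col12a1a, col2a1b, both col6a3 rows, col9a1a and COL25A1 (limma adjusted p up to 0.0327), and on the lower side col4a3bpb, COL5A2 (2 of 2) and col10a1b (up to 0.0303). Of these, col2a1b had 0.785 without the block and 0.0105 with it, and col4a5 had 0.373 and 0.000698. The median log2 difference was 0.40 over the members and -0.04 over all genes tested. In 13 of the 34 all 3 all-arch libraries were above all 3 sox10-only libraries, against 10.8% of all genes, and in 9 all were below, against 20.6%.

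col1a2 was at 499, 725 and 1100.2 TPM in all-arch libraries, against 19.5, 78.8 and 66.4 TPM in sox10-only libraries of 20, 28 and 36 hpf. The means were 775 ± 304 TPM in all-arch cells and 54.9 ± 31.3 TPM in sox10-only cells (SD, n = 3 each), a log2 difference of 3.94 (SE 0.53, limma adjusted p = 0.000202). col1a1a was at 884 ± 600.1 TPM in all-arch cells and 73.9 ± 54.2 TPM in sox10-only cells (SD, n = 3 each), where the sox10-only libraries stood at 14.2, 87.4 and 120.0 TPM. Its log2 difference was 3.70 (SE 0.95, limma adjusted p = 0.0299). The call of col1a1a was lost without all-arch replicate 2 or 3 or sox10-only replicate 2 (adjusted p 0.0591 to 0.116), and was kept with the replicate block. col1a1b was at 2.31, 19.4 and 24 TPM in sox10-only libraries, below all all-arch libraries, and its log2 difference of 3.30 missed the threshold (limma adjusted p = 0.0774). It passed with the replicate block (1.18e-08), under median-of-ratios scaling (0.0265), under quantile normalization (0.0279) and without all-arch replicate 1 (0.0322).

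The type VI genes col6a1, col6a2 and col6a6 rose in all-arch cells. col6a1 was at 12.8, 17.5 and 20.3 TPM in all-arch libraries, against 0.292, 0.983 and 1.04 TPM in sox10-only libraries (log2 difference 3.34, SE 0.38, limma adjusted p = 6.30e-05). col6a2 was at 5.03, 24.8 and 27.2 TPM in all-arch libraries, against 0.277, 1.09 and 1.72 TPM in sox10-only libraries (log2 difference 3.08, limma adjusted p = 0.00853). col6a6 was at 23.2, 31.2 and 35.3 TPM in all-arch libraries, against 1.65, 6.04 and 6.87 TPM in sox10-only libraries (log2 difference 2.53, limma adjusted p = 0.00265). No value of these 3 genes overlapped between the groups, and each call held when any 1 library was left out. Against the sox10-only library of 36 hpf alone, col6a1 kept its call, and col6a2 and col6a6 lost theirs (adjusted p = 0.154 and 0.0611).

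Among the fibril-forming partners, col11a1b was at 8.62, 13.9 and 24.1 TPM in all-arch libraries, against 0.324, 1.47 and 2.89 TPM in sox10-only libraries (log2 difference 2.71, limma adjusted p = 0.00300). col5a1 was at 12.9, 25 and 34.8 TPM in all-arch libraries, against 2.49, 6.17 and 11 TPM in sox10-only libraries (log2 difference 1.81, limma adjusted p = 0.0432). Neither gene overlapped between the groups, but the call of col5a1 was lost without all-arch replicate 2 or 3 or sox10-only replicate 1 or 2 (adjusted p 0.0967 to 0.161). With the replicate block col5a1 kept its call. col12a1b, a fibril-associated chain, averaged 5.63 ± 1.25 TPM in all-arch and 0.421 ± 0.185 TPM in sox10-only cells (SD, n = 3 each; log2 difference 2.21, limma adjusted p = 0.000403).

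Of the 3 multiplexins, basement membrane proteoglycans whose C-terminal fragments include endostatin, 2 went the other way. The remaining gene, COL18A1 (2 of 2), passed in neither direction, with or without the replicate block. col18a1 (ENSDARG00000036558) was at 2.62, 7.42 and 5.51 TPM in all-arch libraries, against 13.5, 27.1 and 38.0 TPM in sox10-only libraries (log2 difference -2.11, SE 0.47, limma adjusted p = 0.00726). col15a1b (ENSDARG00000061848) was at 2.70, 3.83 and 4.95 TPM in all-arch libraries, against 11.2, 10.4 and 23.1 TPM in sox10-only libraries (log2 difference -1.66, SE 0.40, limma adjusted p = 0.0116). All sox10-only values were above all all-arch values for both genes. The call of col15a1b was lost without sox10-only replicate 3 (adjusted p = 0.0632). col4a1, the network chain of the same basement membranes, was at 12.1, 27.8 and 34.6 TPM in sox10-only libraries and overlapped with the all-arch range (log2 difference -0.07, 95% interval -1.14 to 0.99).

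Genes that bind or process collagen changed in both directions. Of 22 tested genes for collagen-binding matrix proteins, 8 rose and 1 fell in all-arch cells (limma, adjusted p under 0.05). The leading ones were fmoda at 417, 304 and 565 TPM in all-arch and 11.1, 16.6 and 22.4 TPM in sox10-only libraries (log2 difference 4.61), lum (log2 difference 4.30) and dcn, which encodes decorin (4.18 on the same scale). The laminin gene lamb1b fell by 2.48. Of 7 maturation genes, loxl2b and pcolcea rose and pcolce2b fell. Of 7 receptor genes, itga11a and MRC2 (a collagen uptake receptor) rose and itga2.3 fell. Of 11 metalloproteinase and inhibitor genes, mmp2 and mmp14a rose and mmp17b and mmp23bb fell. Of 30 chaperone and modifying enzyme genes, 0 passed the test in either direction (2 higher and 1 lower with the replicate block). All 12 pigment genes tested and 9 of 11 otic genes tested fell in all-arch cells, as did 13 of 15 neuron, 10 of 12 glia and crest progenitor, 6 of 16 epidermis, 4 of 7 heart and 3 of 7 notochord genes, while 15 of 19 arch crest genes rose. The arch crest list holds fli1a, and the glia and crest progenitor list holds sox10. Their reporters defined these sorts and the fli1a-only sort below, so fli1a and sox10 are no independent check in these counts. Pigment markers summed to 16.1 to 837 TPM in all-arch cells, against 10266 to 30893 TPM in sox10-only cells, and the part of such cells in the collagen values was not tested.

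**Figure D3:**
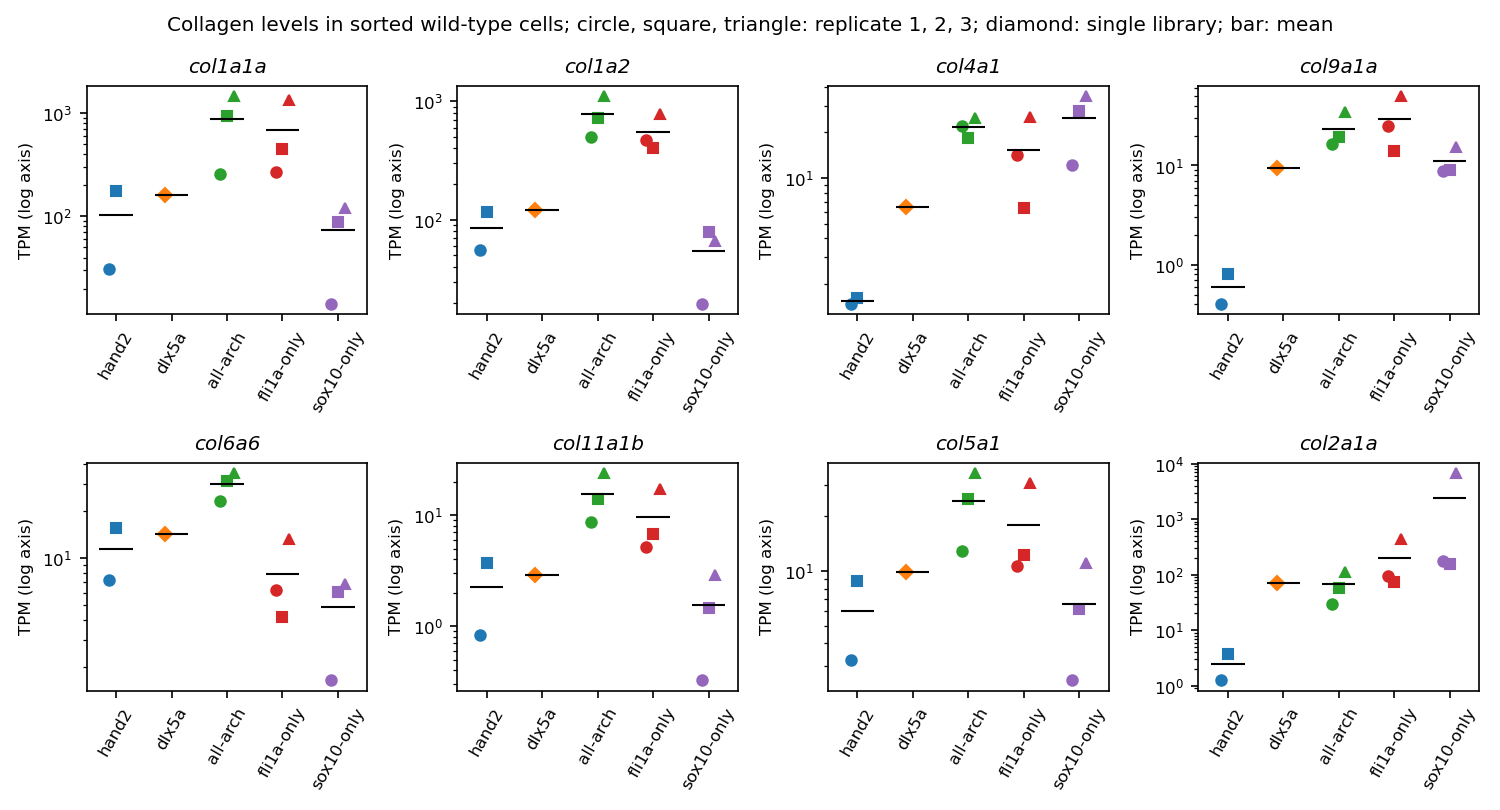
TPM of 8 collagen genes (log axis) in each wild-type sorted population, with circles, squares and triangles for replicates 1, 2 and 3, a diamond for the single dlx5a-sorted library, and a bar at the mean. The 2 hand2-sorted points lie below the 3 all-arch points for all 8 genes, and the 3 sox10-only points lie below the all-arch points for col1a1a, col1a2, col9a1a, col6a6, col11a1b and col5a1.

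The cartilage and notochord collagens stood far apart in the 3 sox10-only libraries. Each labelled stage has 1 library, so these values have no test and the stage and the library cannot be told apart. col2a1a was at 173, 157 and 6789.6 TPM at 20, 28 and 36 hpf. Type IX and type XI partners followed, with col9a1b at 23.4, 8.29 and 735 TPM, col9a2 at 32.1, 17.6 and 586 TPM and col9a3 at 17.3, 22.1 and 740.4 TPM. col11a2 was at 18.3, 7.42 and 470.0 TPM and col11a1a at 9.74, 7.58 and 252 TPM. The short-chain gene col8a1a was at 8.16, 1.66 and 319.6 TPM and col10a1b, of the type X collagen of hypertrophic cartilage, at 1.02, 1.06 and 13.4 TPM. In each of these genes the 36 hpf library was the highest of all 19. In the same libraries col1a1a, col1a2, col9a1a (8.78, 9.08 and 15.4 TPM) and col11a1b had 36 hpf values of 120.0, 66.4, 15.4 and 2.89 TPM, less than 2 times those at 28 hpf. col2a1b was at 2.58, 15.3 and 96.7 TPM.

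Notochord markers moved with these values. ta was at 66.0, 11.5 and 428 TPM, cmn at 16.5, 1.32 and 235 TPM and the proteoglycan gene epyc at 44.7, 6.72 and 467 TPM at 20, 28 and 36 hpf, and the notochord list summed to 154, 35.1 and 1304 TPM. Summed otic markers were also lowest at 28 hpf and highest at 36 hpf, at 1528, 523 and 1735 TPM, while the otolith gene stm was at 209, 35.1 and 159 TPM. The part of these cells in the collagen values was not tested. Against all-arch cells, col9a1b had a log2 difference of -5.39 (limma adjusted p = 0.0561) and col2a1a of -3.28 (limma adjusted p = 0.277), and neither passed the test. With the sox10-only group cut to its library of 36 hpf, the log2 differences were -9.13 for col9a1b and -6.86 for col2a1a. Those of col11a1a, col9a3, col9a2, col11a2 and col8a1a ran from -4.62 to -7.99 in that setting. Without the sox10-only library of 36 hpf, col9a1b had a log2 difference of -3.52 (limma adjusted p = 0.00384). With that library as the only sox10-only one, which the fit assumes to vary like the other groups, 3 members rose and 10 fell in all-arch cells, against 1.47% and 7.27% of all genes. col1a2, col6a1 and col12a1b kept their call there, and col1a1a (adjusted p = 0.154), col5a1 (0.720), col11a1b (0.0643), col6a2 and col6a6 lost theirs.

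**Figure D4:**
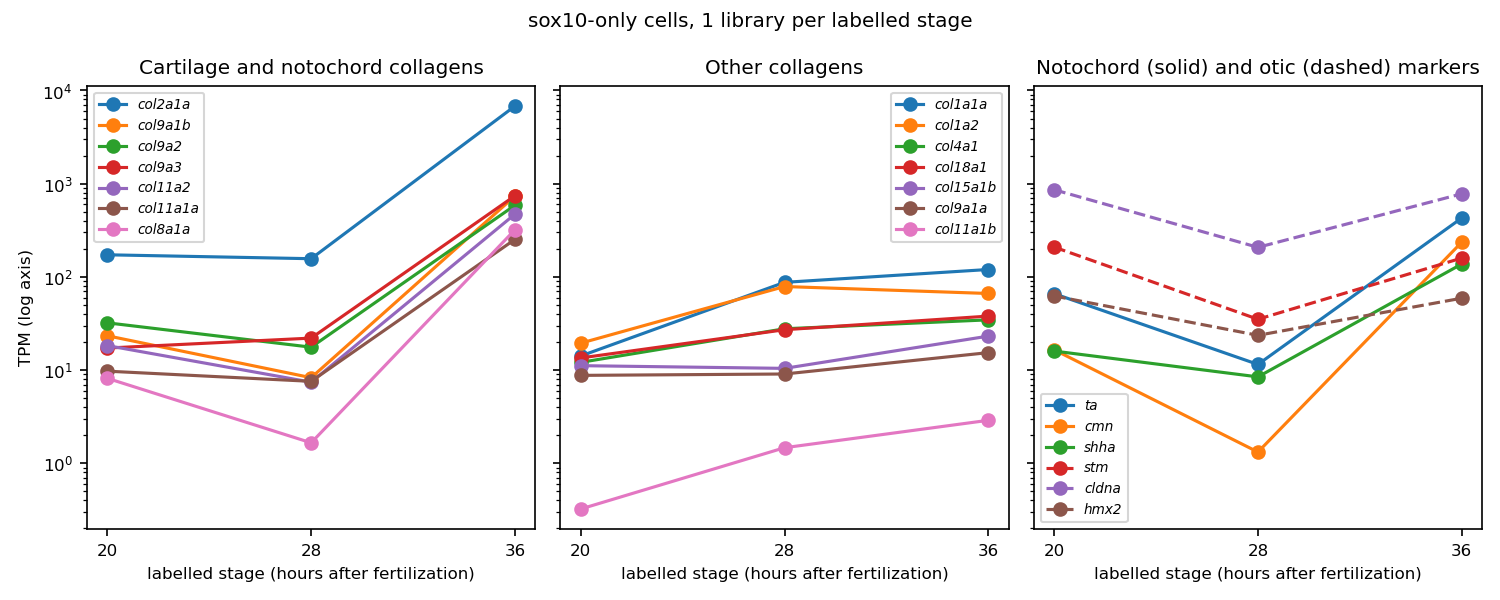
TPM (log axis) in the 3 sox10-only libraries by labelled stage in hours after fertilization, for cartilage and notochord collagens (left), other collagens (middle) and marker genes (right, notochord solid and otic dashed). The left-hand genes and the notochord genes are lowest or near lowest at 28 hpf and highest at 36 hpf, whereas the middle genes differ less between 28 and 36 hpf.

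Fli1a-only libraries held globin and vessel markers at high levels, and the comparison sets arch crest against other fli1a-positive cells. Between them, 2 collagen genes differed past the threshold without the replicate block, and the type I genes did not pass with or without it. Of 34 members tested, 1 rose and 1 fell in all-arch cells (limma, adjusted p under 0.05), against 4.16% and 2.89% of all genes tested. With the replicate number as a block, 10 rose and 2 fell, against 44.5% and 6.16% of all genes. The block added col6a1, col6a2, col4a5, col4a6, col12a1a, col12a1b, col18a1, COL18A1 (2 of 2) and COL25A1 on the higher side and COL23A1 on the lower side (limma adjusted p 0.00404 to 0.0353). No overlap was seen in 6 members on the higher and 3 on the lower side, against 38.5% and 5.75% of all genes. Over all genes tested the median log2 difference was 0.68, and 0.10 when globin genes were left out, so the changes are also given relative to the median. The members had a median of 0.43, with 23 of 34 above 0, but 13 of 34 above 0 when globin genes were left out.

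col6a6 (ENSDARG00000079752) was at 23.2, 31.2 and 35.3 TPM in all-arch libraries, against 6.29, 4.20 and 13.3 TPM in fli1a-only libraries. The groups did not overlap (means 29.9 ± 6.15 TPM in all-arch and 7.93 ± 4.77 TPM in fli1a-only cells, SD, n = 3 each). The log2 difference was 1.90 (SE 0.48, limma adjusted p = 0.0363), or 1.23 relative to the median gene. The call was lost without all-arch replicate 2 or 3 or fli1a-only replicate 1 or 2 (adjusted p 0.0698 to 0.134), and when globin genes were left out or low genes kept (adjusted p = 0.147 and 0.0926). With the replicate block col6a6 kept its call. The partners col6a1 and col6a2 were at 6.13, 4.56 and 11.5 TPM and 3.42, 6.64 and 16.6 TPM in fli1a-only libraries, and missed the threshold (limma adjusted p = 0.0667 and 0.267). Both passed with the replicate block (0.00696 and 0.0194), and col6a1 also without fli1a-only replicate 3 (0.0301).

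The row named COL5A2 (2 of 2) (ENSDARG00000031678), a type V chain, was the gene that fell. It was at 3.02, 3.95 and 9.02 TPM in all-arch libraries, against 18.1, 15.7 and 41.8 TPM in fli1a-only libraries, without overlap. The log2 difference was -2.03 (SE 0.55, limma adjusted p = 0.0470), or -2.71 relative to the median gene. The call was lost without all-arch replicate 1 or 2 or fli1a-only replicate 1 or 2 (adjusted p 0.0648 to 0.152), and when low genes were kept (adjusted p = 0.101). With the replicate block this call was kept. Elsewhere this gene was at 1.63 and 5.88 TPM in hand2-sorted, 1.43 TPM in dlx5a-sorted, 1.5 and 4.66 TPM in edn1 mutant and 4.96, 9.62 and 21.8 TPM in sox10-only libraries. The membrane collagen COL23A1, at 3.01, 2.15 and 5.33 TPM in all-arch and 8.76, 4.26 and 21.1 TPM in fli1a-only libraries, had a log2 difference of -1.28 (limma adjusted p = 0.0841). It passed with the replicate block (0.00404), under median-of-ratios scaling (0.00777), under quantile normalization (0.0142) and with globin genes left out (0.0234).

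Type I levels did not separate these populations. col1a1a averaged 884 ± 600.1 TPM in all-arch cells and 684 ± 569 TPM in fli1a-only cells (SD, n = 3 each), a log2 difference of 0.38 with a 95% interval of -1.76 to 2.52. col1a2 was at 475, 402 and 777 TPM in fli1a-only libraries (log2 difference 0.47, 95% interval -0.67 to 1.62), and col1a1b at 41.9, 112 and 228 TPM. The differences of col1a1a and col1a2 were below the 0.68 of the median gene, but both intervals include 0.68. That median was 0.10 when globin genes were left out. col2a1a was at 94.3, 73.3 and 438 TPM, col2a1b at 6.5, 27.6 and 67.7 TPM and col4a1 at 14.1, 6.32 and 25.2 TPM in fli1a-only libraries, overlapping with all-arch libraries. Arch crest markers summed to 6137 to 9468 TPM in all-arch cells and 1211 to 1927 TPM in fli1a-only cells, while endothelial markers summed to 36.0 to 69.4 TPM in all-arch cells and 619.8 to 2862 TPM in fli1a-only cells. Past the test, 14 of 19 arch crest genes rose in all-arch cells, and 17 of 20 endothelial, 14 of 14 red cell and 3 of 15 neuron genes fell. The part of these cells in the collagen values was not tested. Of 22 collagen-binding genes, vwa1 and nid2a rose and thbs4b fell in all-arch cells, and 6 of 14 cartilage and bone regulators rose, led by barx1 (log2 difference 3.89, limma adjusted p = 0.000177). Of 30 chaperone and modifying enzyme genes, 0 passed in either direction, and 21 rose with the replicate block.

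Between the other two sorted populations, 7 of 34 members rose and 3 fell in fli1a-only cells relative to sox10-only cells (limma, adjusted p under 0.05), against 4.06% and 24.4% of all genes tested. With the replicate number as a block 13 rose and 6 fell (6.31% and 53.6% of all genes). The block added col1a1b (limma adjusted p = 0.0519 without it and 3.43e-08 with it), col5a1 (0.0721 and 0.00155), col9a1a (0.0637 and 0.00478), COL5A2 (2 of 2), COL23A1 and the second col6a3 row on the higher side, and COL18A1 (2 of 2), col10a1b and col9a1b on the lower side. Every call made without the block was kept with it. No overlap was seen in 8 on the higher and 6 on the lower side, against 5.0% and 42.9% of all genes. The comparison shares libraries with those above, and by the stage labels its sox10-only libraries are not replicates of a single stage. The median of all genes was -0.78 on the log2 scale here. Past the test, 19 of 20 endothelial, 14 of 14 red cell and 10 of 19 arch crest genes rose in fli1a-only cells, and 12 of 12 pigment, 12 of 15 neuron, 7 of 11 otic and 6 of 12 glia and crest progenitor genes fell. The part of these cells in the collagen values was not tested. Type I and type VI chains were again on the higher side. col1a2 had a log2 difference of 3.47 (limma adjusted p = 0.000514), or 4.25 relative to the median gene. col1a1a followed with 3.32 (limma adjusted p = 0.0331), a call lost without fli1a-only replicate 2 or 3 or sox10-only replicate 2 (adjusted p 0.0576 to 0.0694). The remaining 5 were col6a1, col6a2, col11a1b, col12a1b and the col6a3 row ENSDARG00000077139, with log2 differences of 1.24 to 2.19. Of these, col6a2 kept its call only without fli1a-only replicate 1 and col6a3 only without fli1a-only replicate 2, of 6 libraries left out in turn (adjusted p otherwise up to 0.10 and 0.0933), and col12a1b lost it without sox10-only replicate 2 (adjusted p = 0.0539). col18a1 and col15a1b were lower, with 1.54, 1.34 and 3.93 TPM and 1.78, 1.46 and 3.57 TPM in fli1a-only libraries (log2 differences -3.03 and -2.25, limma adjusted p = 0.000539 and 0.00142). The third that fell, col4a3bpb, is not a collagen, and its log2 difference was -0.24 relative to the median gene. Its call was lost in 4 of the 6 fits with 1 library left out (without fli1a-only replicate 1, fli1a-only replicate 2, sox10-only replicate 2 or sox10-only replicate 3, adjusted p 0.0790 to 0.167). Of 22 collagen-binding genes, 4 rose and 5 fell, and of 30 chaperone and modifying enzyme genes 0 rose and 1 fell (0 and 16 with the replicate block). With the sox10-only library of 36 hpf alone, an arm of 1 library, 2 rose and 10 fell, against 2.22% and 9.32% of all genes. There col1a2 and col6a1 kept their call, and col1a1a (adjusted p = 0.158), col6a2 (0.234), col11a1b (0.190), col12a1b (0.192) and col6a3 (0.187) lost theirs. Further values in fli1a-only libraries were 5.21, 6.79 and 17.1 TPM for col11a1b, 10.7, 12.3 and 30.7 TPM for col5a1, 25.2, 14.1 and 49.6 TPM for col9a1a, 0.570, 0.354 and 4.88 TPM for col9a1b, 14.4, 16.2 and 47.9 TPM for col9a2 and 9.84, 17.2 and 74.4 TPM for col9a3. The type XI genes col11a1a and col11a2 were at 3.83, 3.8 and 15.9 TPM and 4.22, 1.85 and 14.8 TPM there, and at 5.50, 8.78 and 16.1 TPM and 1.87, 1.85 and 3.14 TPM in all-arch libraries.

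The jag1b comparison asks whether loss of this Notch ligand changes the arches. It has 1 library per genotype, so the values have no test. No member reached a difference of 1 on the log2 scale with at least 10 TPM in the higher library (0 higher and 0 lower of 14 members at that level), against 0.192% and 0.700% of all genes at that level. The type I genes col1a1a, col1a2 and col1a1b were at 502, 417 and 74.0 TPM in the jag1b mutant, against 481, 386 and 77.6 TPM in the wild type. The largest differences among the 14 were col6a6 at 45.8 TPM in the mutant and 28.7 TPM in the wild type (log2 difference 0.66), col4a1 at 9.19 TPM in the mutant and 13.9 TPM in the wild type (-0.55), and col2a1b at 78.1 TPM in the mutant and 60.9 TPM in the wild type (0.36). The cartilage genes col2a1a, col9a1a and col9a3 were at 91.6, 15.6 and 23.2 TPM in the mutant, against 90.5, 14.7 and 24.2 TPM in the wild type. No gene on the 7 lists of collagen-related roles passed the same fold.

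Heat-shock Edn1 asks what extra Edn1 does to arch cells, again with 1 library per group and no test. Of 16 members with at least 10 TPM in the higher library, 1 was past the fold on the higher side and 0 on the lower side, against 2.42% and 1.29% of all genes at that level. It was col18a1, at 10.7 TPM in heat-shock Edn1 and 4.56 TPM in heat-shock Gal4 (log2 difference 1.07). The median of all genes was 0.22 in this pair, and under median-of-ratios scaling col18a1 was not past the fold. Next were the type VI genes col6a6, at 30.3 TPM in heat-shock Edn1 and 15.5 TPM in Gal4, and col6a2, at 19.2 TPM in heat-shock Edn1 and 10.7 TPM in Gal4 (log2 differences 0.93 and 0.79). Type I genes were slightly lower, with col1a1a at 298 TPM in heat-shock Edn1 and 351 TPM in Gal4, and col1a2 at 219 TPM in heat-shock Edn1 and 267 TPM in Gal4. Among related genes, ctgfa and hapln1a (non-collagen matrix) were past the fold on the higher side, and mmp9, a matrix-degrading protease, on the lower side.

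Heat-shock NICD asks what active Notch signalling does to arch cells, with 1 library per group and no test. Of 13 members with at least 10 TPM in the higher library, 1 was past the fold on the higher side and 2 on the lower side, against 5.04% and 2.09% of all genes at that level. col4a1 was at 79.6 TPM in heat-shock NICD and 15.2 TPM in heat-shock Gal4 (log2 difference 2.32). This was its highest level in any of the 19 libraries. Its partner col4a2 stood at 3.51 TPM in heat-shock NICD and 0.785 TPM in Gal4, the highest level of that gene too, but under the minimum of 10 TPM. On the lower side were the beaded filament genes col6a2, at 3.09 TPM in heat-shock NICD and 10.7 TPM in Gal4, and col6a6, at 5.20 TPM in heat-shock NICD and 15.5 TPM in Gal4 (log2 differences -1.52 and -1.41). col6a1, also under the minimum, was at 1.55 TPM in heat-shock NICD and 9.09 TPM in Gal4. The type I genes were not past the fold, with col1a1a at 510.5 TPM in heat-shock NICD and 351 TPM in Gal4 (log2 difference 0.54), and col1a2 at 282 TPM in heat-shock NICD and 267 TPM in Gal4.

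Several laminin and nidogen genes of basement membranes were also higher in heat-shock NICD, but not all type IV genes were. col4a5 was at 11.2 TPM in heat-shock NICD and 12.2 TPM in Gal4 (log2 difference -0.12). col4a6 was at 4.38 TPM in heat-shock NICD and 4.11 TPM in Gal4 (0.07 on the same scale). Of 13 collagen-binding genes at 10 TPM or more, 6 were past the fold on the higher side and 0 on the lower side. They were lamb1a, kera and 4 more laminin or nidogen genes, lama4 at 103 TPM in heat-shock NICD and 31.2 TPM in Gal4, lamb1b at 19.1 TPM in heat-shock NICD and 4.18 TPM in Gal4, lamc1 at 24.5 TPM in heat-shock NICD and 8.59 TPM in Gal4, and nid2a at 87.2 TPM in heat-shock NICD and 36.7 TPM in Gal4. The collagen chaperone gene serpinh1a was the 1 of 19 chaperone and enzyme genes past the fold, at 215 TPM in heat-shock NICD and 97.7 TPM in Gal4. Of 11 cartilage and bone regulators, 4 were past the fold on the lower side (sox9a, nkx3.2, sp5a and barx1) and 0 on the higher side. Glia and crest progenitor markers summed to 1961 TPM in heat-shock NICD and 591 TPM in Gal4, endothelial markers to 71.2 TPM in heat-shock NICD and 29.1 TPM in Gal4, and arch crest markers to 3269 TPM in heat-shock NICD and 5501 TPM in Gal4. A single gene, sox18, held 39.8 TPM of the endothelial sum in heat-shock NICD, and 8 of 21 endothelial genes reached 1 TPM in either library. The part of these cell types in the values was not tested.

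**Figure D5:**
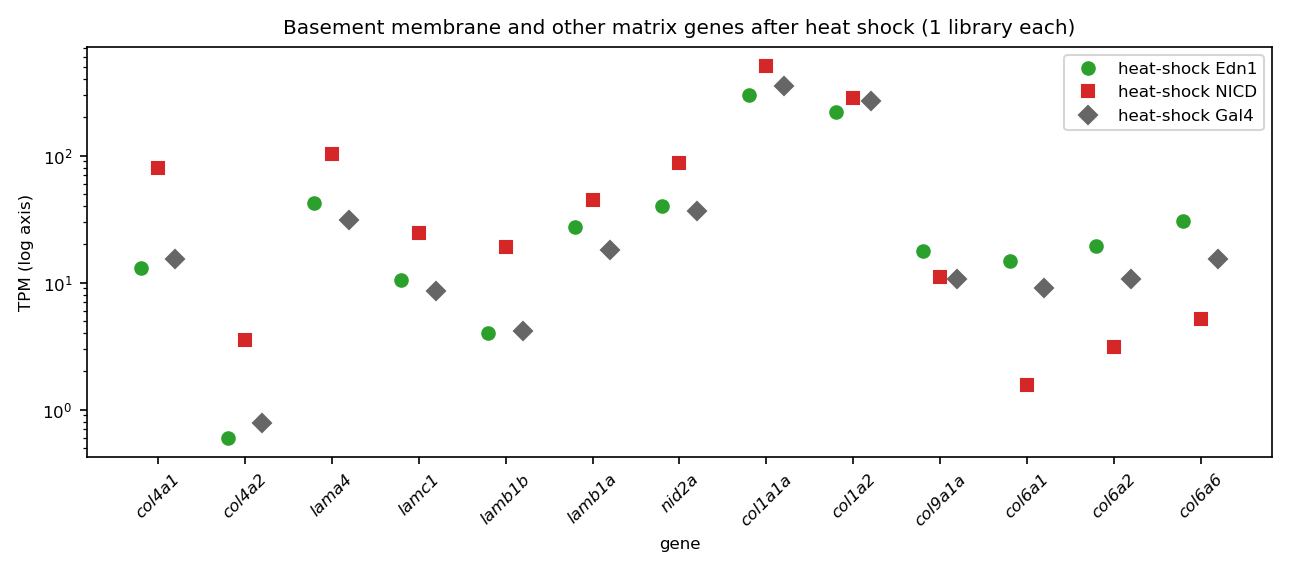
TPM (log axis) of some basement membrane, type I, type IX and type VI genes in the heat-shock Edn1, NICD and Gal4 libraries, 1 point per library. The type IV genes col4a5 and col4a6 are not shown. The NICD point is the highest of the 3 for col4a1, col4a2 and the laminin and nidogen genes, and the lowest for col6a1, col6a2 and col6a6.

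The cartilage collagens were not past the fold in the heat-shock libraries. In heat-shock Edn1, NICD and Gal4, col2a1a was at 106, 58.2 and 68.8 TPM, and col2a1b at 74.8, 72.9 and 59.5 TPM. In the same order, col9a3 was at 22.1, 6.43 and 13.8 TPM, col9a2 at 11.7, 9.73 and 8.34 TPM, and col9a1a at 17.8, 11.1 and 10.6 TPM. col9a3 was lowest in NICD, just under the fold (log2 difference -1.0 against Gal4). The genes col9a1b, col11a2 and col11a1a stayed at or under 7.50 TPM in all 5 jag1b and heat-shock libraries. Among the low classes, the anchoring fibril genes col7a1 and col7a1l reached at most 1.54 TPM together in any library, and the transmembrane genes at most 25.5 TPM together, both in fli1a-only replicate 3.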

How the data were processed

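The deposited table holds TPM for 31953 genes in 19 libraries, computed by the authors. Per the submitters' processing notes, the build GRCz10 and the tools TopHat2 and Partek were used (versions not given). Per the labels' protocols, SMARTer cDNA was sequenced on 2 instrument types, not assigned to libraries there. Each deposited TPM column summed to about 93168 and was multiplied by 10.7333 to reach 1000000, which changes what a pseudocount of 1 means. Genes that share near-identical sequence, such as the duplicated collagens, may share reads. Gene names come from the table and reference symbols from a gene name table (52 of 56 members matched). The row named COL25A1 is listed there as col16a1. It was classed by its name in the deposited data, as a transmembrane gene, and the class counts and sums rest on that name. No coordinates or sequences are given.

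Replicated groups were tested with limma 3.58.1 in R 4.3.3 (trend and robust) on log2(TPM + 1), two-sided, for genes with a mean of at least 1 TPM over the libraries of a fit, with Benjamini-Hochberg adjustment over all genes of the fit and a threshold of 0.05. A log2 difference on this scale understates the change of low genes. One fit held all-arch, fli1a-only and sox10-only cells (3 each), the other all-arch (3), hand2-sorted (2), dlx5a-sorted (1) and edn1 mutant (2) libraries. Pairs of single libraries were described by a log2 difference of at least 1 with 10 TPM in the higher library. The fit was also run on simulated data with independent noise in each library. That simulation holds no deviation shared by replicate number and no stage difference, so it cannot test the fit under either, and no result here rests on it. In the first fit, libraries with the same replicate number deviated together from their group means (9 same-number correlations across genes, 0.316 to 0.739). The numbers were therefore taken to pair the samples, and genes whose call the replicate block changes are named. Counts, adjusted p-values, standard errors and intervals not marked as of the block come from the fit without it, as do the fits with 1 library left out. Those values therefore do not use the pairing. In the first fit, every member called without the block was also called with it. By the stage labels, sox10-only replicates 1 and 2 (20 and 28 hpf) would pair with cells of 36 hpf, a conflict that was not resolved. Genes named are those with the highest mean over all libraries, those past the threshold whose higher group averaged 10 TPM or more and, where none passed, the largest differences. The members, the lists of related genes and the tests were chosen with earlier results of these data known. Alternatives were another pseudocount, no filter, other scalings, leaving out globin genes, and leaving out each library.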

Additional observations from a re-analysis of the deposited data

How the results depend on the processing

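Counts of members past the threshold in limma, as higher and lower, were compared with 1 and 1 for all-arch against fli1a-only cells, 8 and 2 for all-arch against sox10-only cells, and 7 and 3 for fli1a-only against sox10-only cells. Without the filter, where 56 members were tested, the first gave 2 and 0 (0.764% and 1.14% of all genes) and the second 4 lower (9.17%). Median-of-ratios scaling gave 3 lower in the first (6.96%), 14 and 4 in the second (8.18% and 11%) and 15 higher in the third (9.55%). Quantile normalization gave 2 lower (5.62%), 14 higher (9.28%) and 15 higher (9.03%) in the same order. On the deposited scale the filter left 17 members, against 34 in the main fit. There the second gave 3 and 1 (3.74% and 6.93%) and the third 2 and 1 (3.83% and 32.8%). With globin genes left out, the first gave 0 and 2 (1.24% and 5.25%) and the third 12 higher (6.61%). With the replicate block, which takes the numbers as pairs, they gave 10 and 2, 17 and 5, and 13 and 6. With the sox10-only library of 36 hpf alone, the second gave 3 and 10 and the third 2 and 10. Leaving out 1 library at a time gave 0 to 4 and 0 to 1 in the first, 6 to 9 and 2 to 3 in the second, and 3 to 7 and 2 to 5 in the third. For hand2-sorted against all-arch cells the count of 3 lower became 11 with the replicate block and 1 to 3 with 1 library left out. In that fit the libraries share only 2 numbers (hand2-sorted with all-arch correlations 0.335 and 0.541), so the block is not taken as pairing. Same-number correlations with edn1 mutants were 0.616 and 0.449 for all-arch and 0.634 for hand2-sorted libraries. All lie within the range taken as pairing in the first fit. All-arch replicate 3 and hand2-sorted replicate 2, of unlike number, had 0.376. Whether 3 or 11 members fell therefore rests on this choice. For edn1 mutants 0 to 1 members were higher with 1 library left out, and the block changed no count. In the pairs of single libraries, heat-shock Edn1 had 0 higher under median-of-ratios scaling and on the deposited scale, and heat-shock NICD had 4 higher at a minimum of 1 TPM, and 0 higher and 0 lower on the deposited scale, where a minimum of 10 leaves 2 members. The named genes counted here include genes not called in the main fit, taken for a difference of at least 1 log2 unit at 10 TPM. They kept their direction and side of the threshold in 783 of 919 alternatives, lost a call in 64 and gained a call in 63. Only genes called in the main fit can lose a call, so 919 is not the base of the 64 losses. In 5 alternatives, all of heat-shock pairs, the value moved without a test. The direction turned in 4: col11a1a, all-arch against sox10-only without sox10-only replicate 3 (-2.34 to 0.10 over the libraries left out), col2a1b in the same comparison with the 36 hpf library alone (-1.18), col9a3, fli1a-only against sox10-only without sox10-only replicate 3 (-2.41 to 0.26), and col11a2, edn1 mutant against all-arch without edn1 mutant replicate 2 (-0.11 to 3.07). The causes were not tested. TPM keep no depth, so what depth limits cannot be given.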

Other observations

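The ratio between chains that belong to the same molecule differed between genes. col4a1 and col4a2, which sit next to each other in the reference gene order and encode partner chains of the type IV molecule, were never at like levels. col4a1 was above col4a2 in 19 of 19 libraries, with a ratio of TPM between 11.7 (dlx5a-sorted) and 33.3 (jag1b mutant) and a median of 19. The heat-shock NICD library, with the highest level of both genes, had a ratio of 22.7. The type I pair col1a1a over col1a2 had ratios of 0.444 to 1.81, and col1a1a was the higher one in 14 of 19 libraries.

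Duplicated genes fell into those that kept a narrow ratio and those that did not. col1a1a stood 3.96 to 8.24 times above col1a1b in all 19 libraries. By contrast, col2a1a over col2a1b ran between 0.116 (hand2-sorted replicate 2) and 70.2 (sox10-only, 36 hpf). col9a1a over col9a1b ran between 0.0210 (sox10-only, 36 hpf) and 164 (edn1 mutant replicate 1), and col9a1a was the higher copy in 17 of 19 libraries. col11a1a over col11a1b ran between 0.412 (hand2-sorted replicate 2) and 87.1 (sox10-only, 36 hpf). col12a1a was above col12a1b in all 19 libraries, by 1.22 to 9.70 times. These ratios are TPM per gene length as the authors counted them, and reads shared between copies could move them.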
